A study of Mus musculus with 10 samples.

Results

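The 10 genes studied encode transcription factors that mark progenitor domains of the ventral spinal cord, and they were examined in sorted cells of control and Onecut mutant mouse embryos. They were *Olig1*, *Olig2*, *Nkx2-2*, *Nkx2-9*, *Foxa2*, *Nkx6-1*, *Pax6*, *Dbx1*, *Dbx2* and *Pax7*, 10 of the 48974 genes for which counts could be summed, and they were chosen by name for the domains they mark. The cells were YFP-positive cells collected by FACS from dissociated e10.5 spinal cord, in 5 control and 5 cdKO samples, and their RNA was sequenced. Control embryos were heterozygous for Olig2-Cre and for the Rosa26R-YFP reporter, with one wild-type and one floxed allele of both *Oc1* and *Oc2*. The cdKO embryos carried the same Cre and reporter, with one null and one floxed allele of both genes. Every sample therefore carried the Cre, the reporter and at least one floxed allele of each *Oc* gene. *Olig2*, which drives the Cre, is itself one of the 10 genes, and how the Olig2-Cre allele is built is not given in the sources used here. The study describes YFP also in cells ventral to the motor neurons (MNs), which it assigns to V3 interneurons. No source says whether samples were separate embryos or pools, so p-values measure only the spread between these samples, which may be technical.

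In the embryonic neural tube, Sonic hedgehog (Shh) released by the notochord and floor plate divides ventral progenitors into stripes, each marked by its own transcription factors. *Olig2* and *Olig1* mark the pMN domain, which produces MNs. *Nkx2-2* and *Nkx2-9* mark the p3 domain just ventral to it, which produces V3 interneurons, and *Foxa2* marks the floor plate at the midline. *Nkx6-1* spans all the ventral domains from p2 downwards. *Pax6* is expressed dorsal to p3, low in pMN and higher in the domains above it. *Dbx1* marks p0, *Dbx2* the p0 and p1 domains, and *Pax7* the progenitors dorsal to them. Pairs of these factors repress each other and so sharpen the borders between neighbouring stripes.

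The values are CPM, the deposited counts on a gene's exon bins scaled to library size with edgeR's TMM factors, and CPM per kb of exon bins where genes are compared. A bin is a piece of exon that does not overlap another bin, and reads that cross several bins count on each of them, so totals are overlaps and not reads. They ranged from 63932395 to 107709534 in control and from 72315782 to 84249157 in cdKO samples. The first exon of *Onecut1* (*Oc1*) received 63 to 210 counts in control and 0 to 17 in cdKO samples. Over the whole gene, *Onecut1* measured 2.25 to 9.94 CPM in control and 1.03 to 4.29 CPM in cdKO samples, with overlapping ranges. *Onecut3*, the third Onecut gene, measured 0.330 to 0.682 CPM in control and 0 to 0.0381 CPM in cdKO samples, whereas the ranges of *Onecut2* (*Oc2*), from 0.988 to 9.40 and from 1.35 to 19.2 CPM, overlapped. The study attributes the *Oc2* sequences it detected to truncated transcripts that yield no functional peptide. It reports by immunostaining that OC-2 protein was lost in cdKO MNs. The samples are labelled as spinal motor neurons. All 12 genes of a MN list passed the filter on low counts, with a summed level of 780 to 2686 CPM, but so did all 15 genes of a general progenitor list, with 2645 to 5133 CPM. Libraries stood apart in coverage. The median position of counts along 6285 genes, from 0 at the 5′ end to 1 at the 3′ end, was 0.567 in cdKO replicate 5 and 0.489 in control replicate 5, and 0.464 to 0.471 in the other 8 samples.

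In control cells, *Olig2* stood at the top by level per length, with 27.1 ± 7.82 CPM per kb (SD, n = 5), next to the p3 gene *Nkx2-9* with 20.8 ± 25.8 CPM per kb. *Nkx6-1* measured 10.3 ± 2.499 CPM per kb, *Foxa2* 7.26 ± 6.91, *Pax6* 5.01 ± 1.46, *Olig1* 4.14 ± 1.58 and *Nkx2-2* 3.41 ± 1.18. These genes covered the pMN, p3 and floor plate domains and the broad ventral and intermediate factors. The mean ± SD ranges of all neighbours in this order overlapped, with 1 exception. Control replicate 5 carried the place of *Nkx2-9* and *Foxa2*. Without it *Nkx2-9* had 9.28 ± 2.22 CPM per kb and *Foxa2* 4.17 ± 0.564 (SD, n = 4), and 4 of the 9 ranks changed. *Nkx6-1* with 9.32 ± 1.38 then stood in the second place and *Nkx2-9* in the third, with overlapping ranges, *Olig1* in the fourth and *Foxa2* in the sixth. The ranges of *Olig2* and *Nkx6-1* did not overlap then.

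The exception over all 5 controls was the step below *Nkx2-2*. *Dbx2* measured 0.456 ± 0.0892 CPM per kb and *Dbx1* 0.289 ± 0.119, and *Nkx2-2* exceeded *Dbx2* in 10 of 10 samples. *Dbx1* and *Dbx2*, the p0 and p1 factors among the 10 genes, were detected, at levels well below those of the pMN and p3 factors. *Olig2* was above *Nkx2-9* in 9 of 10 samples. In cdKO cells *Olig2* again had the highest mean, 19.1 ± 7.92 CPM per kb (SD, n = 5), and *Dbx1* with 0.498 ± 0.0880 and *Dbx2* with 0.496 ± 0.238 the lowest.

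**Figure D1:**
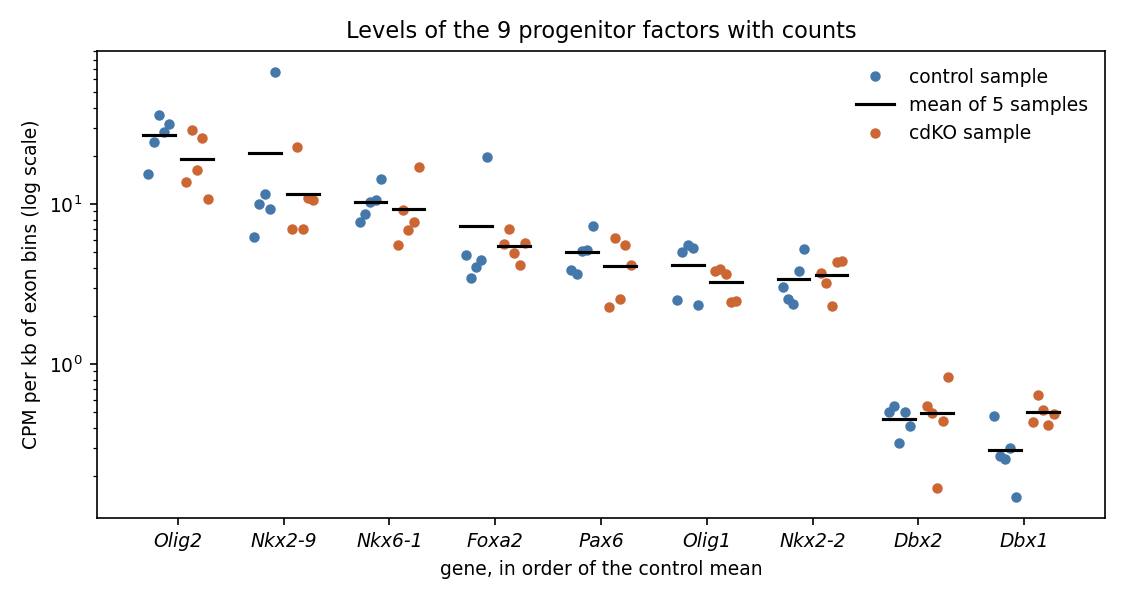
CPM per kb of exon bins on a log axis for the 9 genes with counts, ordered by their control mean, with a point for each of 5 control and 5 cdKO samples and a line at each group's mean. *Dbx2* and *Dbx1* lie below 1 CPM per kb in every sample. Control replicate 5 is the highest point of *Nkx2-9* at 66.9 and of *Foxa2* at 19.6 CPM per kb. The next highest point of *Nkx2-9* is cdKO replicate 2 at 22.8 CPM per kb.

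*Pax7* was at the bottom. It has 12 bins on chromosome 4 of GRCm38, from 139737062 to 139833528 on the minus strand, and all of them had 0 counts in all 10 samples. A count of 0 allows a level of up to 0.0288 to 0.0591 CPM, depending on the sample (3 counts per library, counting error only). Per kb of *Pax7* bins, this floor is 0.00491 to 0.0101 CPM. *Olig2* per kb was at least 2991-fold higher than the floor per kb in every control sample and at least 1069-fold higher in every cdKO sample. A gene without counts in any sample was not rare, as 38.4% of the 48974 genes had none. *Msx1*, a dorsal midline factor, was low but present, with a control mean of 1.16 ± 0.439 CPM (SD, n = 5).

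The place of *Pax6* in this order depends on which bins are counted. Its 66 annotated bins add up to 11694 bp, and 27 noncoding bins outside the upstream block and the last exon, with 8459 of these bases held only 3.34% to 7.31% of its counts. On bins with coding sequence, an alternative added after the data were seen, *Pax6* had 20 CPM per kb in control and took the third place, up from the fifth, and *Olig2* had 27.4. A gene cut into many small bins also gains counts, since a read counts on each bin it crosses.

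None of the 9 genes with counts passed the test between cdKO and control samples, edgeR's quasi-likelihood test over 17838 genes with p-values adjusted by Benjamini-Hochberg. The background was also 0 of all genes (0%) past the adjusted threshold of 0.05. Before adjustment, 0 of the 9 genes passed 0.05, against 891 of all genes (4.99%), and under 4 alternatives 1 gene passed, which was *Dbx1*. In all 9, the groups overlapped, and 72 of all genes (0.404%) had groups that did not overlap. In bulk samples, fewer cells of a type and less RNA per cell cannot be told apart. The 95% intervals of the 9 log2 fold changes reached from -2.17 at their lowest to 1.67 at their highest, and all of them included 0. The estimates of 6 genes were below 0 and those of 3 above 0, while the median over all genes tested was -0.02.

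**Figure D2:**
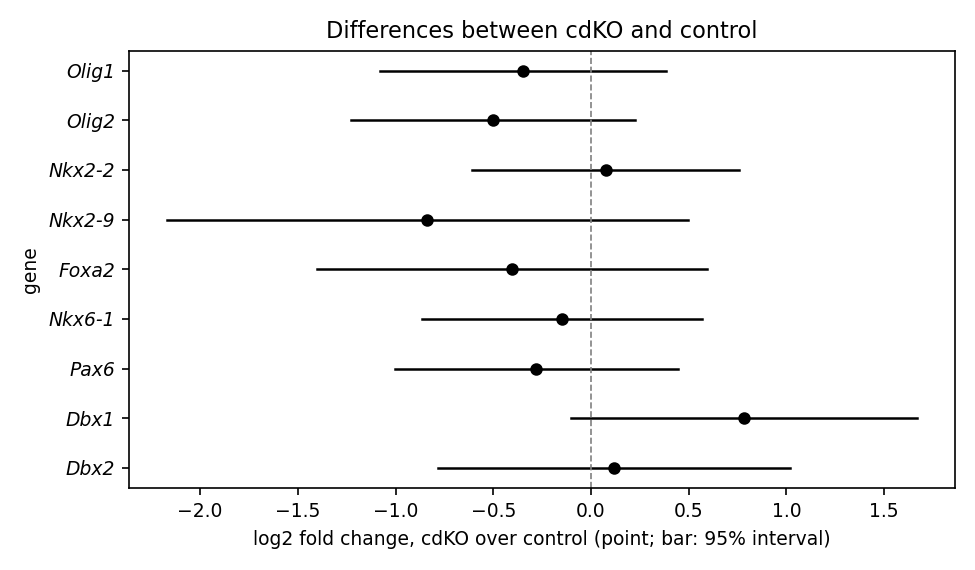
Log2 fold change of cdKO over control for the 9 genes with counts, from edgeR's quasi-likelihood fit of 5 against 5 samples (points), with 95% intervals (bars). Every interval includes 0, and *Dbx1* lies farthest to the right at 0.78 and *Nkx2-9* farthest to the left at -0.84.

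*Olig2*, the basic helix-loop-helix factor that specifies the pMN domain, lies on chromosome 16 from 91225457 to 91228677 on the plus strand. It measured 37.5, 59.8, 87.8, 68.2 and 76.9 CPM in control replicates 1 to 5 and 33.4, 71.2, 39.8, 62.6 and 26.3 CPM in cdKO replicates 1 to 5. Of the 5 cdKO samples, 4 lay below the control mean and 2 below the lowest control, while cdKO replicates 2, 3 and 4 lay within the control range. The means were 66.0 ± 19.1 and 46.6 ± 19.3 CPM (SD, n = 5), and the log2 fold change was -0.50 with a standard error of 0.34 and a 95% interval from -1.23 to 0.22 (adjusted p = 0.982 by edgeR). The exact two-sided permutation test on log2(CPM + 0.5) gave p = 0.143. The estimate was -0.35 without cdKO replicate 5 and -0.71 without cdKO replicate 2.

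*Olig1*, its neighbour on the same chromosome from 91269772 to 91271933, was several times lower per kb. Control samples gave 5.42, 10.8, 12.04, 11.5 and 5.07 CPM, and cdKO samples gave 8.27, 8.47, 7.85, 5.25 and 5.38 CPM. All 5 cdKO samples were below the control mean of 8.96 ± 3.42 CPM (SD, n = 5), yet all lay inside the control range, since control replicates 1 and 5 were low. The log2 fold change was -0.35 (standard error 0.34, 95% interval from -1.08 to 0.39, adjusted p = 0.997 by edgeR; exact permutation p = 0.452). The single exon bin of *Olig1* lies wholly on an exon of the opposite-strand noncoding gene *Gm15966*, and strand was not used in the counting, so the reads of these genes cannot be told apart.

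*Nkx2-2*, the homeodomain factor that defines p3 and represses *Olig2*, lies on chromosome 2 from 147177546 to 147194243 on the minus strand. It gave 8.72, 7.37, 6.80, 11.02 and 15.1 CPM in control and 10.7, 9.16, 6.62, 12.5 and 12.7 CPM in cdKO samples. The samples of both groups were interleaved. The means were 9.81 ± 3.39 and 10.3 ± 2.54 CPM (SD, n = 5), with a log2 fold change of 0.08, a standard error of 0.32 and a 95% interval from -0.61 to 0.76 (adjusted p = 0.999 by edgeR), and it was 0.28 without control replicate 5. Of its counts, 54.4% lie on bins that its opposite-strand partner *Nkx2-2os* also covers.

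*Nkx2-9*, the second p3 homeodomain gene, lies on chromosome 12 from 56611389 to 56613284 on the minus strand and was governed by 1 control library. Control replicates 1 to 4 gave 7.89, 12.7, 14.5 and 11.8 CPM and control replicate 5 gave 84.5 CPM. The cdKO samples gave 8.80, 28.8, 8.84, 13.7 and 13.4 CPM, with replicate 2 the highest. Apart from the 2 high libraries, all samples lay between 7.89 and 14.5 CPM. The log2 fold change was -0.84 with a standard error of 0.62 (95% interval from -2.17 to 0.50, adjusted p = 0.997 by edgeR), and without control replicate 5 it was 0.32. The share of its counts on the 3′ exon was 81.6% in control replicate 5 and 79.4% to 85.0% in the other samples, so both exons were high there.

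*Foxa2*, the forkhead factor of the floor plate, lies on chromosome 2 from 148042877 to 148046969 on the minus strand and was high in the same control library. It gave 11.3, 8.21, 9.53, 10.54 and 46.4 CPM in control replicates 1 to 5 and 13.4, 16.6, 11.7, 9.80 and 13.5 CPM in cdKO replicates 1 to 5. The log2 fold change was -0.40 with a standard error of 0.46 (95% interval from -1.40 to 0.59, adjusted p = 0.997 by edgeR) and became 0.39 without control replicate 5. The other floor plate genes were not high there as a sum, although *Nkx6-1* and *Lmx1b* had their highest control values in that library. The list of 9 genes, *Nkx6-1* included, summed to 114 CPM in control replicate 5 against 258 to 417 CPM in the other controls. *Spon1* governed that gap, with 44.7 CPM there against 204 to 345 CPM in the other controls. The sum therefore says little about the other genes of the list. *Shh*, the floor plate signal, had 2.47 CPM there, against a control mean of 3.35 ± 0.873 CPM (SD, n = 5). The MN list summed to 780 CPM in that library against 1481 to 2686 CPM in the other controls. The general progenitor list had its highest control sum there, 4245 CPM against 2719 to 3207 CPM in the others, and what these differences contributed to *Nkx2-9* and *Foxa2* was not tested.

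*Nkx6-1*, a homeodomain repressor needed for MN formation, lies on chromosome 5 from 101658139 to 101664996 on the minus strand. It gave 24.2, 27.1, 32.3, 33.4 and 44.6 CPM in control and 17.4, 28.9, 21.5, 24.15 and 53.7 CPM in cdKO samples. Replicate 5 was the highest of its group in both, and 3 of the other 4 cdKO samples lay below the lowest control. The log2 fold change was -0.15 (standard error 0.33, 95% interval from -0.87 to 0.57, adjusted p = 0.997 by edgeR). Without cdKO replicate 5 it was -0.48, with an unadjusted p of 0.0732 by edgeR, and without control replicate 5 it was -0.01.

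The high *Nkx6-1* values of both replicates 5 came with a different distribution along the gene. The last exon held 77.1% of its counts in cdKO replicate 5 and 66.9% in control replicate 5, against 43.5% to 51.5% in the other 8 samples. The first exon held 7.11% and 13.6% there, against 25.9% to 30.4% elsewhere. For *Olig2*, the first exon of 104 bp, which is noncoding, had 8 counts in cdKO replicate 5, or 0.6% of the gene, against 2.4% to 4.1% in the other samples. The same 2 libraries had the most 3′-shifted counts over all genes, as given above, and what this contributed to the gene sums was not tested.

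*Pax6*, the paired-box factor of progenitors dorsal to p3, lies on chromosome 2 from 105668900 to 105697364 on the plus strand. It gave 45.01, 42.6, 59.0, 60.7 and 85.5 CPM in control and 26.4, 71.3, 29.7, 64.8 and 48.8 CPM in cdKO samples. The cdKO replicates 1 and 3 lay below the lowest control. The means were 58.6 ± 17.1 and 48.2 ± 20.2 CPM (SD, n = 5), and the log2 fold change was -0.28 with a standard error of 0.34 (95% interval from -1.01 to 0.44, adjusted p = 0.997 by edgeR). Without control replicate 5 it was -0.11.

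These sums did not come from the same exons in every sample. A block of upstream noncoding bins, 864 bp from 105675109 to 105675972, measured 31.0 CPM in control replicate 5 and 33.5 CPM in cdKO replicate 5, and 4.06 to 12.1 CPM in the other 8 samples. It held 36.3% and 68.6% of the *Pax6* counts in these 2 libraries and 13.6% to 18.7% elsewhere. The internal coding bins, 1276 bp in 21 bins, ran the other way in cdKO replicate 5, with 132 counts or 2.60 CPM, against 16.0 to 42.3 CPM in the other 9 samples. The last exon measured 7.04 to 18.7 CPM in control and 4.46 to 13.8 CPM in cdKO samples, with 9.57 CPM in cdKO replicate 5. In that library the *Pax6* level of 48.8 CPM therefore came mostly from the upstream bins, and internal coding bins contributed 5.33%, against 38.5% in control replicate 5 and 56.6% to 62.0% in the other 8 samples. Unlike *Nkx6-1*, where the excess was at the 3′ end, the excess in *Pax6* was at the 5′ side of the gene. Between groups, the exact two-sided permutation test on log2(CPM + 0.5) gave p = 0.849 for the upstream bins, 0.206 for the internal coding bins and 0.444 for the last exon. These parts were defined after the counts had been seen.

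**Figure D3:**
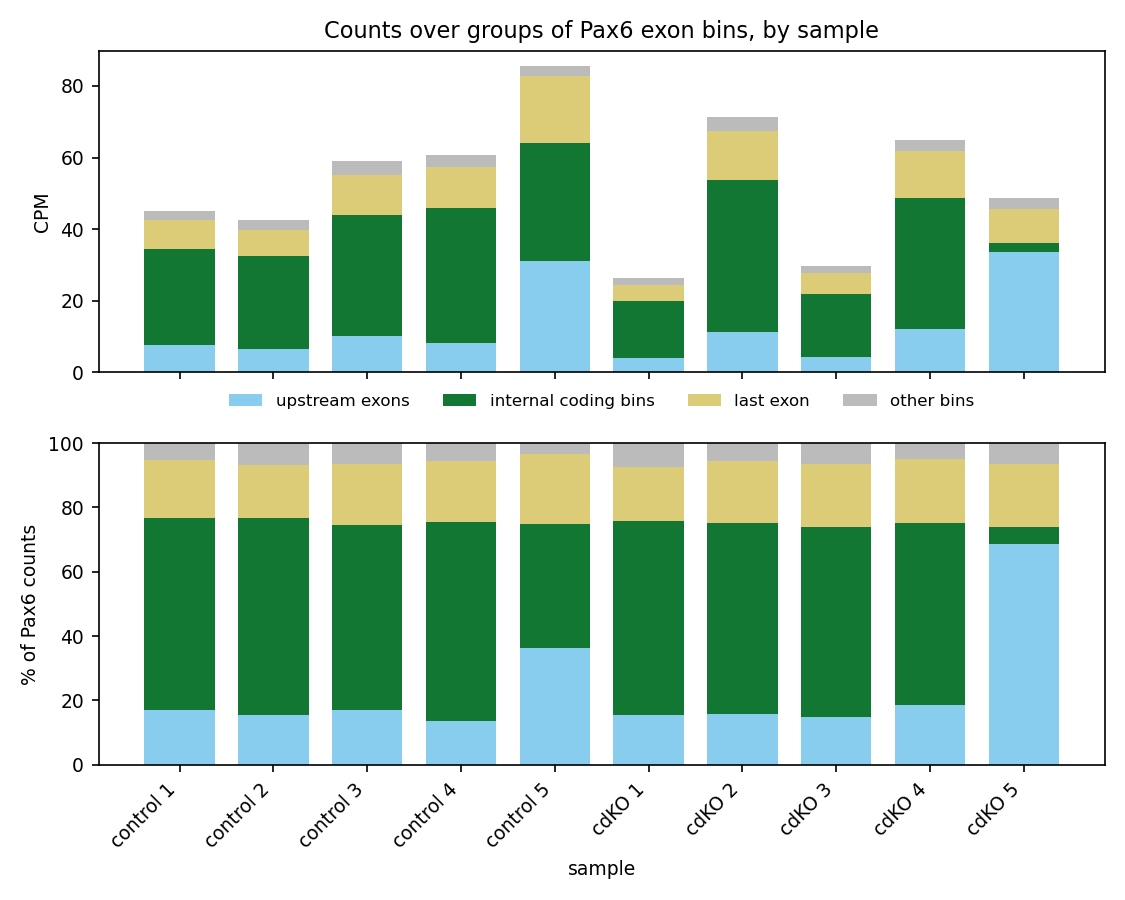
*Pax6* counts by sample, split into upstream exons, internal coding bins, last exon and other bins, in CPM (top) and as a percentage of the *Pax6* counts (bottom). Control replicate 5 and cdKO replicate 5 have the tallest upstream parts, 31.0 and 33.5 CPM, and the internal coding part of cdKO replicate 5 is 2.60 CPM.

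*Pax6* has a short alternative coding exon, known as exon 5a, which inserts residues into the paired domain and changes its DNA binding. It is 42 bp long, on chromosome 2 from 105684751 to 105684792, and has a bin of its own. Its sequence is shown because it is the one bin that separates the 2 protein forms. It is read from a GENCODE M21 transcript, with exon 5a in capitals and 15 bases of the exons on either side in lower case.
Pax6 exon 5a: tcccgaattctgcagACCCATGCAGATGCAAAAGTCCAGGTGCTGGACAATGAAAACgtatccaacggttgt
The bin had 37, 44, 33, 22 and 10 counts in control replicates 1 to 5 and 25, 45, 19, 32 and 0 in cdKO replicates 1 to 5. As a percentage of the mean of the nearest coding bins on either side, this was 31.6, 37.0, 26.3, 18.6 and 12.6 in control and 32.7, 28.2, 35.2 and 24.2 in cdKO replicates 1 to 4. In cdKO replicate 5 the neighbouring bins averaged 5 counts, so no share was read there. Control samples averaged 25.2% ± 9.80 (SD, n = 5), and the cdKO replicates 1 to 4 averaged 30.1% ± 4.88 (SD, n = 4), a difference smaller than the spread (exact two-sided permutation test, p = 0.389). Exon 5a was thus counted in both groups at a minor share of its neighbours. The bins differ in length and reads of unspliced RNA would also count, so the percentage is not the share of transcripts.

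*Dbx1*, the homeodomain factor of p0 progenitors, lies on chromosome 7 from 49631499 to 49636849 on the minus strand and was higher in most cdKO samples. It gave 0.994, 0.556, 0.534, 0.624 and 0.310 CPM in control and 0.902, 1.33, 1.08, 0.870 and 1.02 CPM in cdKO samples, from 21 to 112 counts. All 5 cdKO samples lay above the control mean and 3 above the highest control, control replicate 1, so the groups overlapped. The means were 0.604 ± 0.248 and 1.04 ± 0.184 CPM (SD, n = 5), and the log2 fold change was 0.78 with a standard error of 0.41 and a 95% interval from -0.10 to 1.67. The exact two-sided permutation test gave p = 0.0238 before any correction, where the smallest p that 5 against 5 allows is 0.00794. The edgeR test gave an unadjusted p of 0.0787 and an adjusted p of 0.939, so the difference did not pass the correction. By edgeR the unadjusted p was 0.0457 when every sample had to hold at least 10 counts and 0.0354 when control replicate 1 was left out. It was 0.0356 by the DESeq2 Wald test and 0.0156 by limma-voom with sample weights. Over 20 alternatives the estimate stayed between 0.61 and 1.04 and the adjusted p between 0.521 and 1.

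*Dbx2*, the partner of *Dbx1* in p0 and also a p1 gene, lies on chromosome 15 from 95623563 to 95655960 on the minus strand. It gave 1.74, 1.88, 1.11, 1.74 and 1.42 CPM in control and 1.91, 1.70, 0.578, 1.51 and 2.88 CPM in cdKO samples. The cdKO samples spread on both sides of the control range. The log2 fold change was 0.12 (standard error 0.42, 95% interval from -0.78 to 1.02, adjusted p = 0.999 by edgeR), and without cdKO replicate 5 it was -0.14.

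The pMN factor was compared with the factors of the flanking domains within each sample, as log2 ratios of CPM per kb. *Olig2* over *Nkx2-2* was 2.34, 3.26, 3.93, 2.87 and 2.59 in control and 1.89, 3.20, 2.83, 2.56 and 1.29 in cdKO samples. *Olig2* thus exceeded *Nkx2-2* in every sample, by 2.44-fold in cdKO replicate 5 and up to 15.2-fold in control replicate 3. The means were 2.997 ± 0.62 and 2.35 ± 0.76 (SD, n = 5), and their difference of -0.65 was larger than the control SD and smaller than the cdKO SD, with overlapping ranges.

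*Olig2* over *Pax6* was 2.00, 2.75, 2.83, 2.43 and 2.11 in control and 2.60, 2.26, 2.68, 2.21 and 1.37 in cdKO samples. The lowest value was again in cdKO replicate 5. The means were 2.43 ± 0.37 and 2.23 ± 0.52 (SD, n = 5), within the spread of either group. On bins with coding sequence they were 0.42 and 0.55, since *Pax6* per kb is then higher. The cdKO mean was then above the control mean, whereas on all bins it was below. *Olig2* over *Olig1* averaged 2.75 ± 0.58 and 2.49 ± 0.64. *Nkx2-9* exceeded *Olig2* per kb in 1 sample, control replicate 5, with a log2 ratio of 1.08, and its mean ratio to *Olig2* was -0.95 ± 1.15 in control and -0.77 ± 0.55 in cdKO samples (SD, n = 5).

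**Figure D4:**
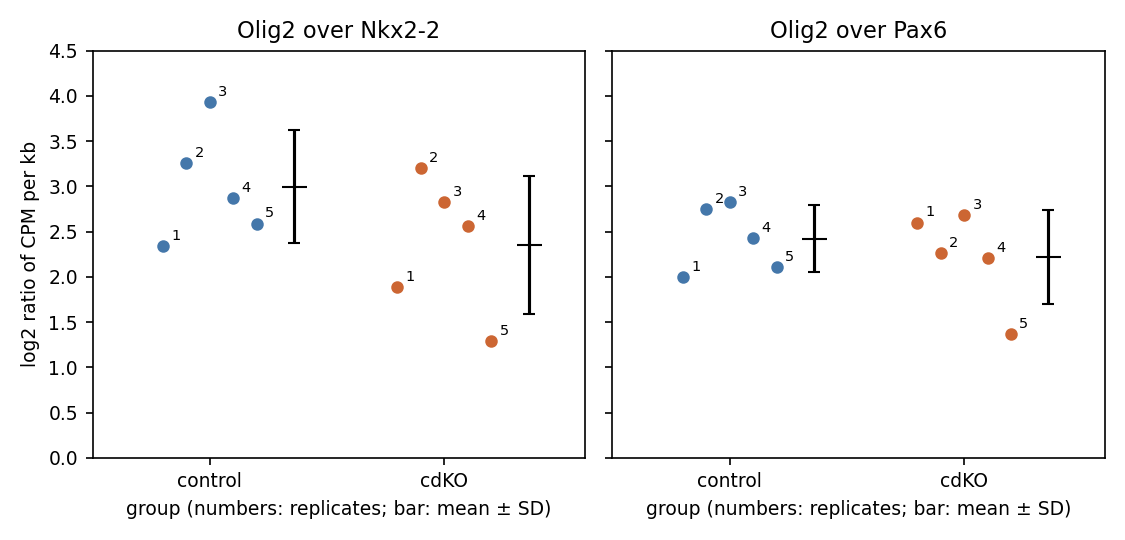
Log2 ratio of CPM per kb of *Olig2* over *Nkx2-2* (left) and over *Pax6* (right), with a numbered point for each replicate and the mean ± SD of 5 samples beside each group. All points lie above 0, and cdKO replicate 5 is the lowest in both panels at 1.29 and 1.37.

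Over the 10 samples, log2(CPM + 0.5) of *Olig2* and *Pax6* had a Pearson r of 0.699, and *Olig2* and *Nkx6-1* of 0.13. Without both replicates 5 these were 0.838 and 0.877 over 8 samples. *Olig1* and *Olig2*, neighbouring pMN genes, had an r of 0.408 and of 0.513 without both. For *Nkx2-9* and *Foxa2* the r of 0.858 became 0.340 when both were left out. These are descriptions, as the samples share groups, coverage and cell make-up. By the same measure over genes with a mean of at least 5 CPM, the 3 genes most like *Olig2* were *Eya3* (r = 0.961), *Ticrr* (0.959) and *Gja1* (0.945). Those most like *Pax6* were *Sde2* (0.974), *Brd8* (0.969) and *Ubp1* (0.958). *Nkx2-9* was most like *Tbp* (0.974), and *Nkx6-1* most like *Nemp1* (0.964).

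Other genes of the same pathways also gave 0 calls past the adjusted threshold. Of 12 other ventral progenitor factors, all tested, 7 had estimates above 0 and 5 below, with a median log2 fold change of 0.20. *Nkx6-2*, a p1 factor related to *Nkx6-1*, averaged 28.3 CPM in control and 37.0 CPM in cdKO samples (log2 fold change 0.39, standard error 0.40). Its estimate was 1.18 with limma-voom and sample weights (unadjusted p = 0.0102, adjusted p = 0.503), and 0.16 without control replicate 3 to 0.62 without control replicate 5. *Prdm8* averaged 39.0 and 28.9 CPM (log2 fold change -0.43, standard error 0.38), with -0.66 and an unadjusted p of 0.0482 by edgeR without control replicate 5. Of 11 dorsal progenitor factors, 6 passed the filter, with a median of 0.21. The 15 general progenitor genes had a median of -0.13. Among them *Hes5*, a Notch target, averaged 1149 and 1018 CPM and *Vim*, the filament of neuroepithelial cells, 579 and 685 CPM in control and cdKO samples. The median over all genes was -0.02.

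Of the 13 Shh pathway genes, 11 had estimates below 0 and none passed the unadjusted threshold, with a median of -0.57. *Ptch1*, the Shh receptor and a target of the pathway, averaged 42.7 and 28.7 CPM (log2 fold change -0.57, standard error 0.37, adjusted p = 0.974 by edgeR), and *Smo*, the transducer, 83.8 and 76.8 CPM in control and cdKO samples (log2 fold change -0.13, standard error 0.46). The 9 floor plate genes had a median of 0.42, and *Spon1*, their most abundant gene, averaged 210 and 194 CPM (log2 fold change -0.12, standard error 0.51). Of the 12 MN genes, 1 was lower at an unadjusted p under 0.05, where 0.818% of all genes were lower. This was *Isl1*, the LIM factor of MNs, with 225 ± 80.5 CPM in control and 127 ± 32.9 CPM in cdKO samples (SD, n = 5; log2 fold change -0.83, standard error 0.31, unadjusted p = 0.018 and adjusted p = 0.939 by edgeR). Without control replicate 5, its highest library with 347 CPM, the log2 fold change was -0.62 with an unadjusted p of 0.0542 by edgeR, and without both replicates 5 it was -0.60 with 0.0427. *Nefl*, a neurofilament gene, and *Slit2*, a guidance ligand, had estimates of 0.26 and -0.17 with standard errors of 0.57 and 0.41.

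Markers of other cells were measured beside these genes. None of the V3, V2 and V1 genes tested passed the unadjusted threshold. The 3 V3 genes, 1 of them *Nkx2-2*, summed to 10.8 to 19.3 CPM in control and 10.4 to 19.5 CPM in cdKO samples. These sums rest largely on *Nkx2-2*, which made 15.1 of the 15.3 CPM in control replicate 5. The other V3 genes varied more, *Sim1* from 0.148 to 4.83 CPM and *Uncx* from 0.0443 to 6.36 CPM. Both were lowest in control replicate 5. Summed V2 genes ranged from 2.90 to 17.2 and 6.70 to 23.5 CPM, V1 genes from 1.36 to 15.2 and 3.39 to 24.2 CPM, and V0 genes from 0.0271 to 0.843 and 0.0119 to 1.83 CPM, with 0 of 3 V0 genes passing the filter. Erythroid genes ranged from 0.901 to 19.1 CPM in control and 2.91 to 66.1 CPM in cdKO samples, with 2 of 6 tested higher at an unadjusted p under 0.05, and mesenchyme genes from 6.47 to 20 and 12 to 24.3 CPM, with 2 of 7 higher, where 4.18% of all genes (745) were higher. Without cdKO replicate 5, 109 genes in all were higher. The erythroid sums of cdKO replicates 3 and 5 were 54.9 and 66.1 CPM, and the other 3 cdKO samples, with 2.91 to 10.7 CPM, lay inside the control range. Neural crest and sensory neuron genes, a list that also holds *Isl1*, ranged from 182 to 385 and 122 to 197 CPM, with 1 of 4 tested lower, which was *Isl1*. Notochord, somite, endothelium and macrophage lists had 0 genes past the unadjusted threshold, and each summed to at most 10.6 CPM in any sample. What these cells contributed to the progenitor factors was not tested.

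Promoter sequences from RefSeq on GRCm38.p6, from 250 bases before to 50 bases after a start site, were matched for 9 of the 10 genes, all but *Olig1*, in 12 promoters. They were searched on both strands for ATTGAT and ATCGAT, 6-letter cores of Onecut binding motifs, and for TGGGTGGTC, a Gli motif through which Shh signalling acts. ATTGAT was found in 1 of the 12 promoters, that of *Foxa2*, and in 7.54% of all 32851 promoters of the same length. ATCGAT was found in 0 of the 12 and in 0.925% of all, and TGGGTGGTC in 0 of the 12 and in 0.253% of all. The *Foxa2* match is shown as the only one. The 30 bases printed lie at chr2:148047165-148047194 on the minus strand, with the motif in capitals, and the first base of the motif is 213 bases before the start site.
Foxa2 promoter: acaaggcccattATTGATtttttttctcct
A match is a run of letters and not a site shown to be bound, and no match says only that these letters are not in these windows.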

How the data were processed

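Raw counts per exon bin, not normalized, were deposited by the authors for 10 samples (5 control, 5 cdKO, grouped by the sample titles, which also give the stage). Per the labels, the submitters' processing notes name bcl2fastq 2.17, Trimmomatic 0.36, STAR 2.5.2b, Subread 1.5.2, DESeq2 and the build GRCm38. Here, bins were summed per gene with GENCODE M21, and 3996 bins with 1.19% of the counts that could not be given to 1 gene were left out. All 10 genes were units of their own in the files. Of 17838 genes that passed edgeR's filterByExpr (minimum count 10), groups were compared with TMM scaling and edgeR's quasi-likelihood test (edgeR 4.0.16, R 4.3.3), with Benjamini-Hochberg adjustment and a threshold of 0.05. Single values were compared by exact two-sided permutation of log2(CPM + 0.5) over all 252 arrangements. The exon 5a percentages were permuted without the log, over all arrangements of 5 control and 4 cdKO samples. The fits were tested on simulated data. All 10 genes are named. From each pathway list the genes past the unadjusted threshold and the 2 with the highest mean CPM are named, except 1 gene that is not reported here, and further genes were chosen after their values were seen. Genes and lists were chosen with earlier results of these data known. Floors and counts cover counting error only, since reads carry no molecular identifiers. Alternatives were DESeq2 1.42.0 (Wald test and size factors), library size alone, other count filters, limma-voom 3.58.1 with sample weights, a replicate block, other bin sets and each sample left out. Bins with coding sequence, and leaving out both replicates 5, were added after seeing the data.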

Additional observations from a re-analysis of the deposited data

Results flagged for a closer look

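Single samples far from the rest of their group were looked for in 28 groups of 5 samples by Dixon's criterion, and 5 were found. Chance meets it in about 1 of 20 groups if values are normally distributed, which was not checked for CPM. Parts of *Pax6* among these groups were defined after the counts had been seen, so their 2 far samples are values only and cannot be read against that rate. *Nkx2-9* was 84.5 CPM in control replicate 5, where the next highest control had 14.5 CPM, and 28.8 CPM in cdKO replicate 2, where the next highest cdKO sample had 13.7 CPM. *Foxa2* was 46.4 CPM in control replicate 5, where the next highest control had 11.3 CPM. The upstream noncoding bins of *Pax6* were 31 CPM in control replicate 5, next to 10.1 CPM, and 33.5 CPM in cdKO replicate 5, next to 12.1 CPM. Of the 5, 4 lay in control replicate 5 and cdKO replicate 5, the libraries with the counts lying farthest towards the 3′ end. Their cause was not tested.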

How the results depend on the processing

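No alternative gave a member or any gene of the pathway lists an adjusted p under 0.05. Over all genes, edgeR's 0 adjusted calls became 1 when scaled by library size alone, 1 without a count filter, 20 with the DESeq2 Wald test and 13 with limma-voom and sample weights, and 0 to 4 with samples left out, the 4 without control replicate 5 or without both replicates 5. Unadjusted calls, 745 higher and 146 lower, became 381 and 252 with library size only, which moved the median of all genes to -0.15, and 109 and 319 without cdKO replicate 5. Members at an unadjusted p under 0.05, 0 with edgeR, became 1 (*Dbx1*) with the DESeq2 Wald test, limma-voom, at least 10 counts in every sample, or without control replicate 1, and *Isl1* was no longer past it without control replicate 5. *Nkx2-2* was -0.0817 with library size only and -0.0326 to 0.284 with samples left out. *Nkx2-9* was 0.00125 and *Foxa2* 0.226 with limma-voom, and with samples left out they ran from -1.24 to 0.348 and from -0.582 to 0.39, above 0 without control replicate 5. *Dbx2* was -0.086 with library size only, -0.347 with limma-voom, and -0.191 to 0.32 with samples left out. With limma-voom *Vim* was -0.0718, *Smo* 0.134 and *Nkx6-2* 1.18. With samples left out, *Vim* ran from -0.0729 to 0.312, *Hes5* from -0.349 to 0.0948, *Slit2* from -0.412 to 0.129, *Nefl* from -0.0265 to 0.768, *Smo* from -0.351 to 0.122 and *Spon1* from -0.378 to 0.13. DESeq2 gave no p for *Nkx2-9* and *Foxa2*, and *Olig1* has no bin free of another gene. The mean log2 ratio of *Olig2* over *Pax6* in control and cdKO samples moved to 8.3 and 7.99 on the longest bin of each gene, for *Pax6* a noncoding bin with few counts, and to 0.42 and 0.547 on bins with coding sequence. Of the 9 ranks by level, 4 changed on the longest bin, 3 on coding bins and 0 to 4 with a control sample left out, the 4 without control replicate 5. Apart from the constructions named, the cause was not tested.

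Same-numbered samples deviated together with correlations of 0.0783, -0.257, 0.114, 0.321 and 0.283 for replicates 1 to 5, against a mean of -0.0147 for other numbers. The spread of the other correlations was not computed, so these values do not decide whether equal numbers mark a shared batch. The labels do not say so either, and the main test did not pair the samples. With the replicate block there were 0 adjusted calls, 461 unadjusted calls against 891, *Dbx2* was -0.0258 and *Slit2* 0.0437. The block changed standard errors in both directions, to 0.227 from 0.51 for *Spon1* and to 0.439 from 0.412 for *Dbx1*. Depth was not varied, and *Dbx1* rests on 21 to 112 counts in a sample.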
